A study of Mus musculus with 12 samples.

Results

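The pyruvate dehydrogenase complex, the kinases that switch it off and the phosphatases that switch it on were examined in bulk RNA-seq of airway smooth muscle cells (SMCs) and lung PDGFR-β+ cells after knockdown of Klf4. Members were chosen by name: 10 symbols, Pdk1, Pdk2, Pdk3, Pdk4, Pdp1, Pdp2, Pdha1, Pdhb, Dlat and Dld, each found as a row of both tables among 52636 gene rows. There were 12 libraries in 4 groups of 3. The SMCs were the commercial line CellBiologics C57-6082, labelled as trachea of C57BL/6 and as WT or Klf4 KD. The PDGFR-β+ cells were labelled as lung cells of C57BL/6 mice, 12 weeks old, WT or Klf4 KD, whereas the methods of the study describe Zs+ cells sorted from Pdgfrb-CreERT2, ROSA26R(Zs/+) reporter mice, in which tamoxifen-induced Cre marks cells that express Pdgfrb. In each cell type, cells received either a scrambled RNA as control (Scr) or a small interfering RNA against Klf4 (siKlf4). The study describes the replicates of each group as independent experiments, and the labels do not say whether these were separate animals or cultures.

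The complex sits in mitochondria and turns pyruvate, the end product of glycolysis, into acetyl-CoA for the TCA cycle. Its E1 enzyme is built from the alpha subunit Pdha1 and the beta subunit Pdhb, its E2 enzyme is Dlat and its E3 enzyme is Dld, with Pdhx tethering E3 to the core. The kinases Pdk1, Pdk2, Pdk3 and Pdk4 phosphorylate and inactivate Pdha1, and the phosphatases Pdp1 and Pdp2 remove the phosphate, with Pdpr as a regulatory subunit. Pdk1 is a known target of the hypoxia-inducible factors (HIF), which favour glycolysis, and Pdk4 is a known target of the PPAR receptors, which favour the use of fat.

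Levels are in TPM, transcripts per 1000000, in which reads are divided by transcript length and every library is scaled to that total, so that levels can be set side by side between genes. Each library had 20590 to 21780 genes above 0 TPM. The scaling hides the depth that each library reached, which is unknown here, though the study gives a target. Klf4 measured 89.6 to 96.3 TPM in Scr and 16.3 to 26.5 TPM in siKlf4 SMCs, and 134 to 146 TPM in Scr and 12.3 to 13.8 TPM in siKlf4 PDGFR-β+ cells. In all, 1 Scr and 1 siKlf4 column of the SMC table carry no replicate number; SMC values are given in the order unnumbered, replicate 2, replicate 3. Of 8 smooth muscle markers, Myocd stayed at or below 0.21 TPM in every library. The summed smooth muscle markers were 1495 to 2284 TPM in Scr SMCs, below the 5551 to 6408 TPM in Scr PDGFR-β+ cells, and reached 3411 to 4174 TPM in siKlf4 SMCs and 4708 to 5003 TPM in siKlf4 PDGFR-β+ cells. By the test given below, 6 of 7 tested markers rose and 0 fell in SMCs, against 15.6% and 12.9% of all genes. In PDGFR-β+ cells 3 of 7 rose and 3 fell, against 25.3% and 15.3%, so the sum does not speak for each marker. Pdgfrb itself was 213 to 216 TPM in Scr SMCs and 423 to 474 TPM in Scr PDGFR-β+ cells. Other PDGFR-β+ mesenchymal markers went the other way: Pdgfra was 357 to 511 TPM in Scr SMCs and 151 to 180 TPM in Scr PDGFR-β+ cells. Of 8 such markers, 3 were called higher and 5 lower in Scr SMCs, against 25.5% and 25.9% of all genes. They summed to 4670 to 5033 TPM in Scr SMCs and 5328 to 5918 TPM in Scr PDGFR-β+ cells. Summed leukocyte markers stayed at or below 7.19 TPM in SMCs and ran from 28.7 to 29.9 TPM in Scr and 18.7 to 22.8 TPM in siKlf4 PDGFR-β+ cells, with Ptprc at or below 0.27 TPM. Endothelial markers summed to at most 18.4 TPM and epithelial markers to at most 1.10 TPM. The part of these shifts in the results below was not tested, and in bulk RNA fewer cells of a type and less RNA per cell cannot be told apart.

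**Figure D1:**
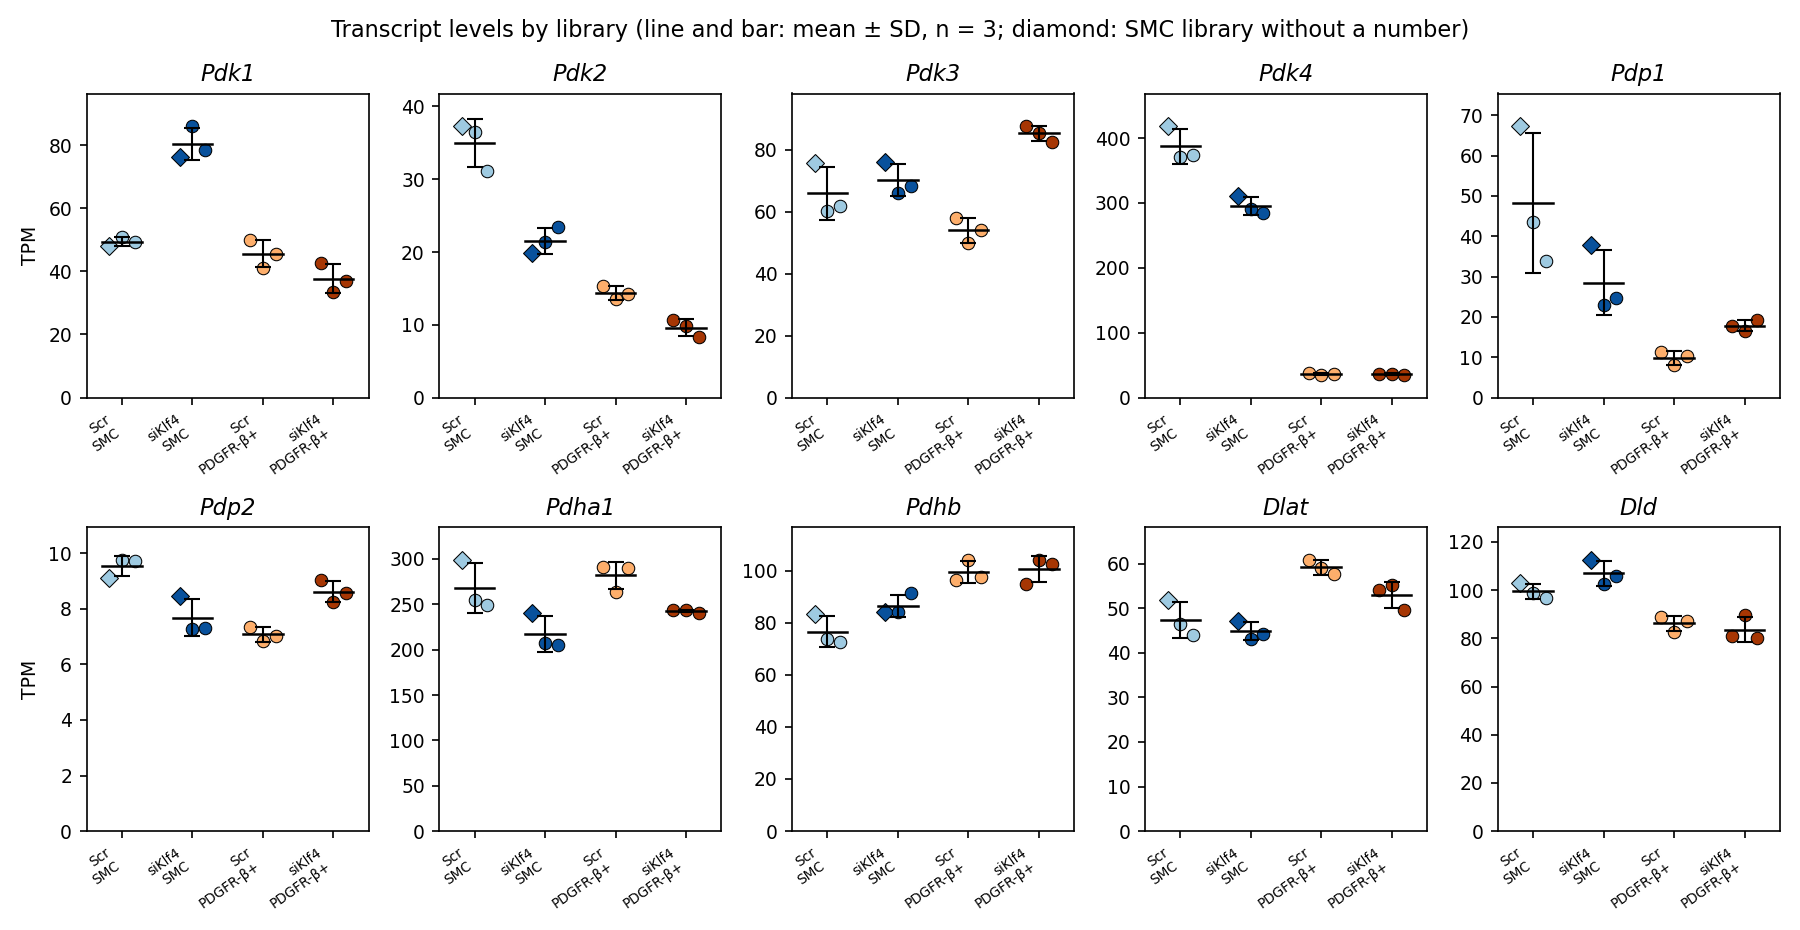
TPM of each of the 10 genes (vertical axes, from 0) in the 12 libraries, by group; points are libraries, lines and bars the mean and SD of 3 libraries, and diamonds the SMC libraries without a number. Pdk4 lies between 285 and 419 TPM in SMCs and below 38 TPM in PDGFR-β+ cells, and Pdk1 separates the SMC groups but not the PDGFR-β+ groups.

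The first question was how the unperturbed cell types differ. Scr SMCs carried far more Pdk4, Pdp1 and Pdk2 transcript than Scr PDGFR-β+ cells, while Pdhb and Dlat, subunits of the complex, were lower in SMCs. Differences were tested on log2(TPM + 1) with limma, with Benjamini-Hochberg adjustment over all genes that averaged 1 TPM or more in both cell types (SE is the standard error), and a gene was called at an adjusted p under 0.05. Of the 10 genes, 6 were called higher and 2 lower in SMCs, where 51.4% of all 13032 genes tested were called (25.5% higher and 25.9% lower); the groups did not overlap for 8 of the 10, against 57.5% of all genes. The median log2 difference of the 10 was 0.24 and that of all genes 0.00493. Cell type, source of the cells, the culture medium before transfection and table cannot be told apart in this comparison.

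Pdk4 measured 419, 370 and 374 TPM in Scr SMCs and 37.3, 34.8 and 36.6 TPM in Scr PDGFR-β+ cells. Every SMC library was above every PDGFR-β+ library, with a ratio of the means of 10.7 and a log2 difference of 3.38 (SE 0.067, adjusted p = 5.27e-11, limma). Pdp1 measured 67.3, 43.6 and 33.7 TPM in Scr SMCs and 11.2, 8.05 and 10.2 TPM in Scr PDGFR-β+ cells. The SMC libraries spread widely but none reached down to the PDGFR-β+ range, and the log2 difference was 2.14 (SE 0.23, adjusted p = 1.62e-05, limma). Pdk2 measured 37.3, 36.5 and 31.1 TPM against 15.4, 13.5 and 14.3 TPM, a ratio of 2.43 and a log2 difference of 1.22 (SE 0.11, adjusted p = 2.72e-06, limma). Smaller differences were called for Pdp2 (0.38), Dld (0.20) and Pdk3 (0.28), all higher in SMCs, and for Pdhb (-0.37) and Dlat (-0.32), both lower. The call for Pdk3 ended in the Scr libraries fitted alone or the numbered SMC libraries alone, where its adjusted p reached 0.0747, and it ended with any of 3 libraries left out, the value going to 0.18 without the unnumbered Scr SMC library (adjusted p = 0.104) and to 0.22 without Scr PDGFR-β+ replicate 2 (adjusted p = 0.101, limma). The call for Dld ended under 3 alternatives, with adjusted p up to 0.0907, and with any of 3 libraries left out, and that for Pdp2 ended after quantile normalization, where the value was 0.21 (adjusted p = 0.0579, limma). Pdk1 (0.12, 95% interval -0.09 to 0.33) and Pdha1 (-0.08, 95% interval -0.26 to 0.11) did not pass the test, though Pdha1 was called lower in the numbered SMC libraries alone (-0.16, adjusted p = 0.049, limma) and with a term for the form of the column names (-0.15, adjusted p = 0.0329). Among 16 TCA cycle genes, 8 were lower in SMCs and 0 higher, against 25.9% and 25.5% of all genes, with a median log2 difference of -0.18.

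The kinases ranked in another order in each cell type. In Scr SMCs it was Pdk4, Pdk3, Pdk1 and Pdk2, with no overlap between neighbours in the order. In Scr PDGFR-β+ cells it was Pdk3, Pdk1, Pdk4 and Pdk2, and there the lowest Pdk3 library, at 49.8 TPM, lay level with the highest Pdk1 library, also 49.8 TPM. Pdha1 was the most abundant subunit in both, at 249 to 299 TPM in Scr SMCs and 264 to 291 TPM in Scr PDGFR-β+ cells. Dlat was the lowest of the 4 subunits Pdha1, Pdhb, Dlat and Dld, at 43.9 to 51.8 TPM and 57.6 to 60.9 TPM.

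The next question was whether the Pdk1 change after Klf4 knockdown in SMCs was shared by the other genes. In SMCs, Pdk1 rose while Pdk2 and Pdk4 fell, so 3 of the 4 kinases changed, and not in 1 direction. Neither phosphatase and none of the 4 subunits passed the test. Thus 1 of the 10 genes was higher and 2 were lower, against 28.5% of all 13709 genes called (15.6% higher and 12.9% lower). The groups did not overlap for 6 of the 10, against 47.1% of all genes. The median log2 fold change of the 10 was -0.18 and that of all genes 0.02.

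Pdk1 (chromosome 2 of mm10, 71873224 to 71903858, forward strand) measured 47.9, 50.8 and 49.4 TPM in Scr and 76.4, 86.0 and 78.5 TPM in siKlf4 SMCs. All siKlf4 libraries lay above all Scr libraries. The log2 fold change was 0.69 (SE 0.072, 95% interval 0.52 to 0.86, adjusted p = 0.00158, limma). Pdk2 (chromosome 11, 95026258 to 95041354, reverse strand) measured 37.3, 36.5 and 31.1 TPM in Scr and 19.9, 21.4 and 23.4 TPM in siKlf4 SMCs. Each siKlf4 library was below each Scr library, with a log2 fold change of -0.67 (SE 0.10, 95% interval -0.91 to -0.43, adjusted p = 0.00467, limma). Pdk4 (chromosome 6, 5483351 to 5496309, reverse strand) measured 419, 370 and 374 TPM in Scr and 311, 291 and 285 TPM in siKlf4 SMCs. The groups were again apart, with a log2 fold change of -0.39 (SE 0.073, 95% interval -0.56 to -0.22, adjusted p = 0.00929, limma). Pdk3 (chromosome X, 93764607 to 93832201, reverse strand) measured 75.8, 60.2 and 61.8 TPM in Scr and 75.9, 66.0 and 68.3 TPM in siKlf4 SMCs. These groups overlapped, and the log2 fold change was 0.09 (95% interval -0.16 to 0.34, adjusted p = 0.548, limma). With 3 libraries against 3, an exact permutation test cannot go below a two-sided p of 0.1, so these calls rest on limma's spread shared across genes.

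In PDGFR-β+ cells a different kinase rose. Pdk3 and the phosphatase Pdp1 were higher after knockdown, Pdk2 and Pdha1 were lower, and Pdk1 and Pdk4 did not pass the test. That made 2 higher and 2 lower of 10, against 40.6% of all 13694 genes called (25.3% higher and 15.3% lower), and the groups did not overlap for 6 of 10, against 53.8%. The median log2 fold change of the 10 was -0.03, and that of all genes was 0.10. Median-ratio scaling of the libraries brought the all-gene median to -0.00318 and moved the calls from 62.3% to 47.0% higher, so small values in this cell type are best read against that shift.

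Pdk3 measured 58.0, 49.8 and 54.1 TPM in Scr and 87.6, 85.4 and 82.5 TPM in siKlf4 PDGFR-β+ cells, replicates 1 to 3. The groups were well apart and the log2 fold change was 0.65 (SE 0.078, 95% interval 0.47 to 0.83, adjusted p = 6.57e-04, limma). Pdk2 measured 15.4, 13.5 and 14.3 TPM in Scr and 10.7, 9.84 and 8.32 TPM in siKlf4. The groups did not overlap, and Pdk2 fell by 0.54 on the log2 scale (SE 0.11, adjusted p = 0.0077, limma). Pdk4 measured 37.3, 34.8 and 36.6 TPM in Scr and 36.5, 36.9 and 34.5 TPM in siKlf4, with a log2 fold change of -0.01 (95% interval -0.18 to 0.16, adjusted p = 0.935, limma). Pdk1 measured 49.8, 41.2 and 45.6 TPM in Scr and 42.5, 33.5 and 37.0 TPM in siKlf4. A single siKlf4 library, replicate 1, lay within the Scr range, and the log2 fold change was -0.27 (95% interval -0.53 to -0.01, adjusted p = 0.0904, limma). Pdk1 was called lower after median-ratio scaling (-0.38, adjusted p = 0.0253, limma) and after quantile normalization (-0.36, adjusted p = 0.0274). It was also called lower in a single fit of both cell types (adjusted p = 0.0402, limma), with a replicate block (adjusted p = 0.0264) and without siKlf4 replicate 1 (-0.36, adjusted p = 0.0455). The study's DESeq2 test on counts listed a larger fall of Pdk1 in PDGFR-β+ cells, with a false discovery rate far below 0.05, and a rise in SMCs. The study also measured Pdk1 by qRT-PCR, and concluded only that it rises in SMCs and does not rise in PDGFR-β+ cells.

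**Figure D2:**
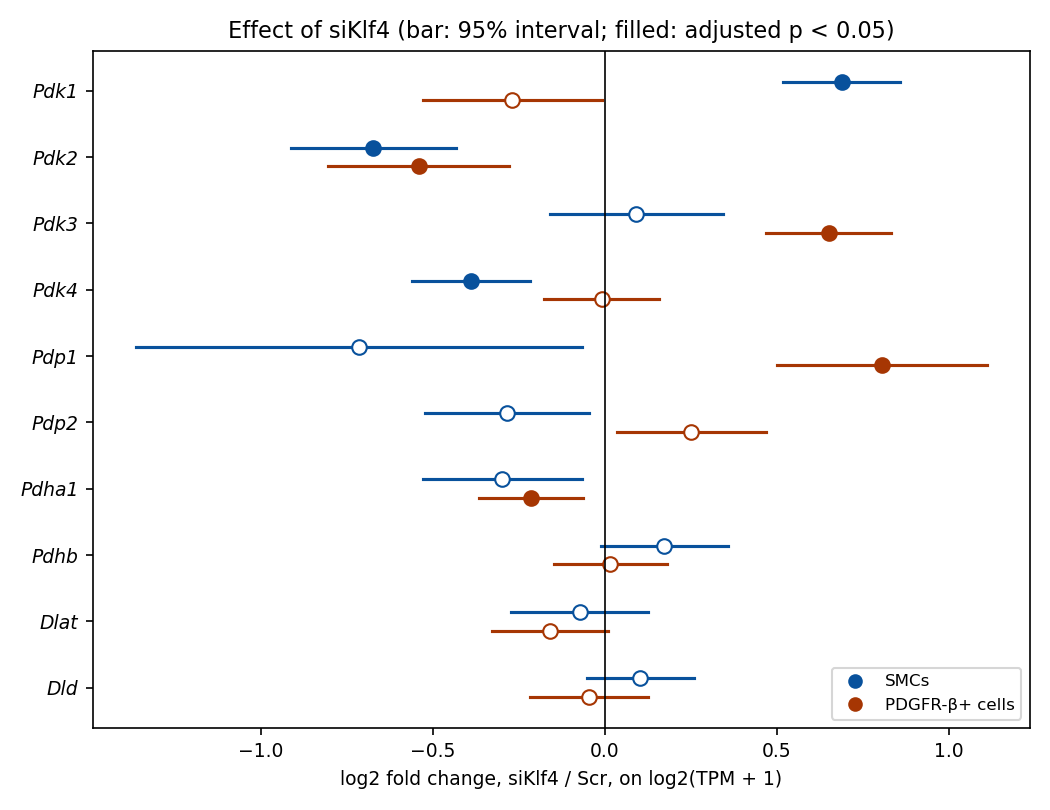
Log2 fold change of siKlf4 against Scr (horizontal axis, on log2(TPM + 1)) for the 10 genes in SMCs and PDGFR-β+ cells; bars are 95% intervals and filled points passed an adjusted p of 0.05. Pdk1 stands at 0.69 among SMCs but -0.27 among PDGFR-β+ cells, Pdk2 is below 0 in both, and Pdk3 and Pdp1 are raised in PDGFR-β+ cells.

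The effect on both phosphatases differed between the cell types, by the interaction test given further on. Pdp1 (chromosome 4, 11958184 to 11966452, reverse strand) measured 11.2, 8.05 and 10.2 TPM in Scr and 17.8, 16.5 and 19.2 TPM in siKlf4 PDGFR-β+ cells. It rose 1.81-fold by the means, with a log2 fold change of 0.81 (SE 0.13, adjusted p = 0.00254, limma). In SMCs it measured 67.3, 43.6 and 33.7 TPM in Scr and 37.8, 23.0 and 24.8 TPM in siKlf4. These groups overlapped, since the unnumbered siKlf4 library was above the Scr library of replicate 3, and the log2 fold change of -0.71 had an adjusted p of 0.094 (limma). The difference was -0.82 between the unnumbered libraries and -0.66 among the numbered ones. It was called in the numbered libraries alone (adjusted p = 0.0294, limma) and with a replicate block, which also drops the unnumbered libraries (-0.66, adjusted p = 0.0496). It was further called in a single fit of both cell types (adjusted p = 0.0364, limma) and with a term for the form of the column names (adjusted p = 0.00477). With a library left out it was not called and ranged from -0.94 without Scr replicate 3 to -0.45 without the unnumbered Scr library. Pdp2 measured 9.13, 9.77 and 9.72 TPM in Scr and 8.46, 7.27 and 7.31 TPM in siKlf4 SMCs, and 7.36, 6.86 and 7.02 TPM in Scr and 9.02, 8.26 and 8.57 TPM in siKlf4 PDGFR-β+ cells. Its groups were apart in both cell types, in opposite directions, with log2 fold changes of -0.28 (adjusted p = 0.0766) and 0.25 (adjusted p = 0.065, limma), neither of which passed the test. Pdp2 was called in both cell types in the single fit (adjusted p = 0.0286 and 0.0365, limma), in the numbered SMC libraries alone (-0.37, adjusted p = 0.0449) and in PDGFR-β+ cells without a mean-variance trend (adjusted p = 0.0383). Other alternatives weakened it. The value went to -0.25 in SMCs, with adjusted p up to 0.156, and to 0.11 in PDGFR-β+ cells, with adjusted p up to 0.341 (limma).

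The subunits of the complex varied less. Pdha1 measured 299, 255 and 249 TPM in Scr and 240, 207 and 205 TPM in siKlf4 SMCs, with a log2 fold change of -0.30 (adjusted p = 0.0599, limma). In PDGFR-β+ cells it measured 291, 264 and 291 TPM in Scr and 243, 244 and 241 TPM in siKlf4, with a log2 fold change of -0.21 (adjusted p = 0.0339, limma). Each siKlf4 library was below each Scr library in both cell types. The SMC difference was called in the numbered libraries alone (adjusted p = 0.0123, limma) and with a replicate block in those same libraries (-0.29, adjusted p = 0.0333). It was also called in the single fit (adjusted p = 0.0184, limma), with a term for the column names (adjusted p = 0.00288) and after quantile normalization (adjusted p = 0.0451). So it was without the unnumbered siKlf4 library (-0.37, adjusted p = 0.0404, limma). Leaving out a library ended the PDGFR-β+ call in 5 of 6 cases, with adjusted p up to 0.111, as did the single fit (adjusted p = 0.06) and a fit without a trend (adjusted p = 0.0682). Pdhb measured 83.2, 73.9 and 72.6 TPM in Scr and 84.0, 84.1 and 91.3 TPM in siKlf4 SMCs, with a log2 fold change of 0.17 (adjusted p = 0.14, limma), and 0.02 in PDGFR-β+ cells (95% interval -0.15 to 0.18). The SMC value was called in the numbered libraries alone (0.26, adjusted p = 0.0417, limma) and without the unnumbered Scr library (adjusted p = 0.0499). Dlat showed log2 fold changes of -0.07 (95% interval -0.27 to 0.13) in SMCs and -0.16 (95% interval -0.33 to 0.01) in PDGFR-β+ cells, where it was called after median-ratio scaling (-0.27, adjusted p = 0.00935, limma) and quantile normalization (-0.23, adjusted p = 0.0171). Dld had 0.10 (95% interval -0.05 to 0.26) and -0.05 (95% interval -0.22 to 0.12). Outside the 10, Pdhx measured 16.1, 15.4 and 16.4 TPM in Scr and 19.9, 23.5 and 21.2 TPM in siKlf4 PDGFR-β+ cells, a log2 fold change of 0.41 (adjusted p = 0.00961, limma), and -0.02 in SMCs. Pdpr passed the test in neither cell type, but was called in PDGFR-β+ cells without siKlf4 replicate 1 (-0.44, adjusted p = 0.0283, limma).

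Whether the effects differed between the cell types was tested with the interaction term over all 12 libraries. Of the 10 genes, 1 differed toward SMCs and 4 toward PDGFR-β+ cells, against 33.0% of all 13032 genes (14.5% and 18.5%). Pdk1 differed by 0.96 (SE 0.13, adjusted p = 3.22e-04, limma). Pdp1 differed by -1.52 (SE 0.33, adjusted p = 0.00474), Pdk3 by -0.56 (adjusted p = 0.008), Pdp2 by -0.54 (adjusted p = 0.00656) and Pdk4 by -0.38 (adjusted p = 0.00966). Pdk2, lower in both cell types, differed by -0.13, with a 95% interval of -0.46 to 0.20. For the 4 subunits among the 10 the difference lay between -0.08 and 0.16 and did not pass the test. Their 95% intervals together ran from -0.35 (Pdha1) to 0.38 (Pdhb). The calls of these 10 genes were the same in all 100 results under other settings and in all 120 with a library left out. Outside the 10, the subunit Pdhx differed by -0.43 (SE 0.125, adjusted p = 0.021, limma). That call ended after median-ratio scaling (adjusted p = 0.0524, limma), after quantile normalization (adjusted p = 0.0644) and with either of 2 libraries left out (adjusted p = 0.0544).

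The make-up of the kinase transcripts was compared within libraries, since shares within a library do not depend on how libraries are scaled. In Scr SMCs, Pdk4 made up 72.1% ± 0.49 (SD, n = 3) of the 4 kinases and Pdk1 9.22% ± 0.83. In siKlf4 SMCs, Pdk4 made up 63.2% ± 0.99 and Pdk1 17.2% ± 1.4. The sum of the 4 kinases was 516 to 580 TPM in Scr and 455 to 483 TPM in siKlf4 SMCs, so the ranges did not overlap. In Scr PDGFR-β+ cells, Pdk3 made up 35.9% ± 0.20, Pdk1 30.3% ± 0.75 and Pdk4 24.2% ± 0.88. In siKlf4 PDGFR-β+ cells, Pdk3 made up 50.6% ± 1.1, Pdk1 22.3% ± 1.9 and Pdk4 21.4% ± 0.85, with sums of 139 to 160 TPM and 162 to 177 TPM. The ratio of Pdk1 to Pdk2 ran from 1.29 to 1.59 in Scr and from 3.35 to 4.02 in siKlf4 SMCs. The ratio of kinase to phosphatase transcripts ran from 8.63 to 9.35 in Scr and from 5.84 to 6.70 in siKlf4 PDGFR-β+ cells. In SMCs that ratio overlapped, at 7.58 to 11.9 in Scr and 10.4 to 15.3 in siKlf4. Within like-named SMC libraries it was higher with siKlf4 each time. It went from 7.58 to 10.4 for the unnumbered libraries, from 9.70 to 15.3 for replicate 2 and from 11.9 to 14.2 for replicate 3. The labels do not say that like-named libraries were paired. These shares and ratios are descriptions of transcripts, with no test.

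**Figure D3:**
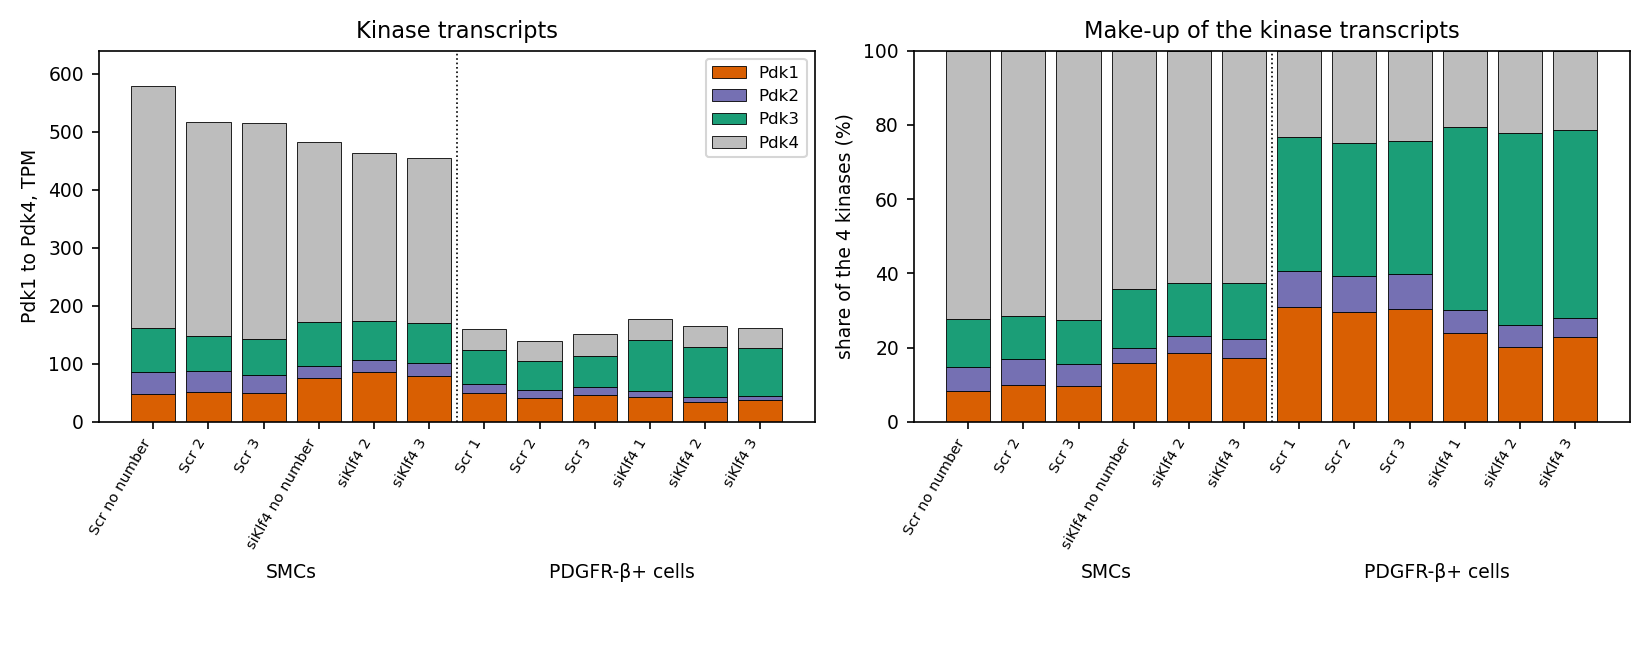
Stacked levels of Pdk1 to Pdk4 in TPM (left, from 0) and their shares of the 4 kinases in percent (right) in each of the 12 libraries. Pdk4 fills 71.5% to 72.4% of the stack in Scr SMCs and 62.6% to 64.4% in siKlf4 SMCs, and in PDGFR-β+ cells Pdk3 goes from 35.7% to 36.1% with Scr to 49.4% to 51.5% with siKlf4.

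Because the knockdown targets a factor of the KLF family, which binds CACCC boxes, and Pdk1 is known as a HIF target, the stretch before the start of each kinase gene was searched for letters of both kinds. The 250 bases upstream of the start (RefSeq, GRCm38.p6) are printed for the 4 kinases, whose responses differed, on the strand of the gene. Capitals mark CACCC or its reverse complement GGGTG, and the hypoxia core ACGTG or GCGTG or their reverse complements CACGT and CACGC.
Pdk1 (chr2:71872974-71873223, forward): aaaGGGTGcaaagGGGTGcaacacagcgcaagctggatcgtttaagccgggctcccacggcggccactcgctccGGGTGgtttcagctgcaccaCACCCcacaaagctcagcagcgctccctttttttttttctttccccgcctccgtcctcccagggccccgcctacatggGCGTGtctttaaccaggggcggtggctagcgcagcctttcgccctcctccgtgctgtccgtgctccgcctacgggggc
Pdk2 (chr11:95041372-95041621, reverse): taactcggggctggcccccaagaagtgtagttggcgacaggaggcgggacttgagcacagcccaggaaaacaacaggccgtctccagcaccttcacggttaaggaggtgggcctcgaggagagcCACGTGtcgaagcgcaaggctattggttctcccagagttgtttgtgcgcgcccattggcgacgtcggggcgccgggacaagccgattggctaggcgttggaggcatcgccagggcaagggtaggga
Pdk3 (chrX:93832151-93832400, reverse): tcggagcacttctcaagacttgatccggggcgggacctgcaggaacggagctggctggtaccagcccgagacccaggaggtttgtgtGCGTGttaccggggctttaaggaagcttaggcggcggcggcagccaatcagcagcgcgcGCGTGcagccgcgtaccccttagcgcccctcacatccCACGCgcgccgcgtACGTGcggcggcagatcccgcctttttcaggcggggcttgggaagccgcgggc
Pdk4 (chr6:5496279-5496528, reverse): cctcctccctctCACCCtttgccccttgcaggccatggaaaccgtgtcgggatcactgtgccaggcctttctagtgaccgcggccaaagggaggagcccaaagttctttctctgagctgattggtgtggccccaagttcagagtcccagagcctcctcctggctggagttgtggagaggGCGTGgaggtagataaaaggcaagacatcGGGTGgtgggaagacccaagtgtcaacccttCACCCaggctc
The window of Pdk1 held 4 CACCC boxes and 1 hypoxia core, that of Pdk4 held 3 and 1, that of Pdk2 held 0 and 2, which overlap in a palindrome, and that of Pdk3 held 0 and 4. Among 32851 windows of this length, 52.0% held a CACCC box and 38.6% a hypoxia core. Of the 10 genes, 9 were in the table of starts, all but Pdp1. The RefSeq start of Pdk3 and Pdk4 lies inside the GENCODE gene, so part of those windows is transcribed in GENCODE. A match is a description of letters, and binding was not measured here. Of the members, 2 share their place with a gene on the other strand, Pdk2 with Gm11513, at most 0.152 TPM, and Pdha1 with Map3k15, at most 3.49 TPM; whether counting used the strand is not given in the sources used here.

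Pdk1 was next set beside other HIF targets and the wider handling of pyruvate. Counts of genes that rose and fell are to be read against all genes, of which 15.6% rose and 12.9% fell in SMCs and 25.3% rose and 15.3% fell in PDGFR-β+ cells. Of 24 HIF targets without Pdk1, 13 rose and 0 fell in SMCs, with a median log2 fold change of 0.52 against 0.02 for all genes. In PDGFR-β+ cells, 3 of 23 rose and 7 fell, with a median of -0.23 against 0.10. The effect differed between the cell types for 15 of 23, of which 14 were higher in SMCs, against 33.0% of all genes (14.5% higher and 18.5% lower). Values given for single genes of the lists are log2 fold changes. Car9, a carbonic anhydrase, rose by 1.51 (adjusted p = 6.94e-04, limma), Slc2a1, a glucose transporter, by 1.06 and Egln3, a HIF hydroxylase, by 1.04 in SMCs. Slc2a1 and Egln3 were also among those that rose in PDGFR-β+ cells, by 0.58 (adjusted p = 0.0191) and 0.30 (adjusted p = 0.0237, limma). Between the cell types the difference was called for Egln3 (0.74, adjusted p = 3.79e-04) but not for Slc2a1 (0.48, adjusted p = 0.13, limma). Car9 was too low in PDGFR-β+ cells to be tested. In PDGFR-β+ cells Bnip3, a mitophagy receptor, fell by 1.69 (adjusted p = 6.43e-05, limma), Mxi1 fell by 1.14 and the glycolytic enzyme Tpi1 fell by 0.87. In the numbered SMC libraries alone 13 HIF targets rose and 0 fell. After median-ratio scaling 2 rose and 13 fell in PDGFR-β+ cells.

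Of 11 genes of pyruvate transport and its other fates, 3 rose and 1 fell in SMCs and 1 rose and 3 fell in PDGFR-β+ cells, with medians of -0.17 and 0.05 against 0.02 and 0.10 for all genes. In SMCs the lactate exporter Slc16a3 rose by 1.11 (adjusted p = 0.0057, limma), from 35.4 to 53.4 TPM across Scr libraries to 86.8 to 114 TPM across siKlf4 libraries. The lactate dehydrogenase subunit Ldha, which is also on the HIF list, rose by 0.65, and Pcx, which carboxylates pyruvate to oxaloacetate, fell by 0.63 (adjusted p = 0.00166, limma). In PDGFR-β+ cells Ldhb rose by 0.43, while the alanine aminotransferase Gpt2 fell by 0.36 and the citrate carrier Slc25a1 fell by 0.33. Of 16 TCA cycle genes, 4 rose and 0 fell in SMCs, against 15.6% and 12.9% of all genes, and their median of 0.02 was that of all genes. Idh3a (0.41), Cs (0.36) and Sucla2 (0.30) were among them. In PDGFR-β+ cells 1 rose, Cs (0.51), and 2 fell, among them Ogdh (-0.29), with a median of -0.06 against 0.10.

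The related 2-oxoacid dehydrogenases, which share the design of the complex, were part of a list of 12 genes, with Ogdh and Dlst also on the TCA list. The list also held Gldc, Amt and Gcsh of the glycine cleavage system, and Bckdk and Ppm1k, the kinase and phosphatase of the branched-chain complex. In SMCs 6 fell and 0 rose, against 15.6% of all genes that rose and 12.9% that fell, with a median log2 fold change of -0.33 against 0.02. In PDGFR-β+ cells 2 rose and 3 fell, against 25.3% and 15.3%, with a median of -0.05 against 0.10. Gldc, the decarboxylase of the glycine cleavage system, fell by 0.87 in SMCs (adjusted p = 0.017, limma) and rose by 1.68 in PDGFR-β+ cells (adjusted p = 1.50e-04, limma). It measured 26.5 to 36.2 TPM in Scr and 13.9 to 22.0 TPM in siKlf4 SMCs, and 3.06 to 3.47 TPM in Scr and 10.6 to 15.4 TPM in siKlf4 PDGFR-β+ cells. Amt, of the same system, fell by 0.56 and Bckdhb, of the branched-chain complex, fell by 0.53 in SMCs. In PDGFR-β+ cells Ppm1k, the phosphatase of the branched-chain complex, rose by 0.66 and Ogdhl fell by 0.58.

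Pdk4 was set beside 16 PPAR targets. In SMCs 2 of 14 tested rose and 3 fell, against 15.6% and 12.9% of all genes, with a median of -0.09 against 0.02. In PDGFR-β+ cells 7 of 13 rose and 4 fell, against 25.3% and 15.3%, with a median of 0.31 against 0.10. After median-ratio scaling 5 rose and 4 fell in these cells, with a median of 0.20. In SMCs the fatty acid carrier Fabp4 fell by 1.18, whereas the lipid droplet protein Plin2 rose by 1.35. In PDGFR-β+ cells the fat oxidation gene Hadhb fell by 1.84, and Plin2 rose by 0.84. Of 15 regulators known to act on Pdk transcription, 1 of 14 tested rose and 2 fell in SMCs: Hif1a rose by 0.39, Epas1, which encodes HIF-2 alpha, fell by 1.19 and Foxo1 fell by 0.57. In PDGFR-β+ cells 3 of 12 rose, among them Esrra (0.43), and Rb1 and Epas1 fell by 0.95 and 0.49.

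**Figure D4:**
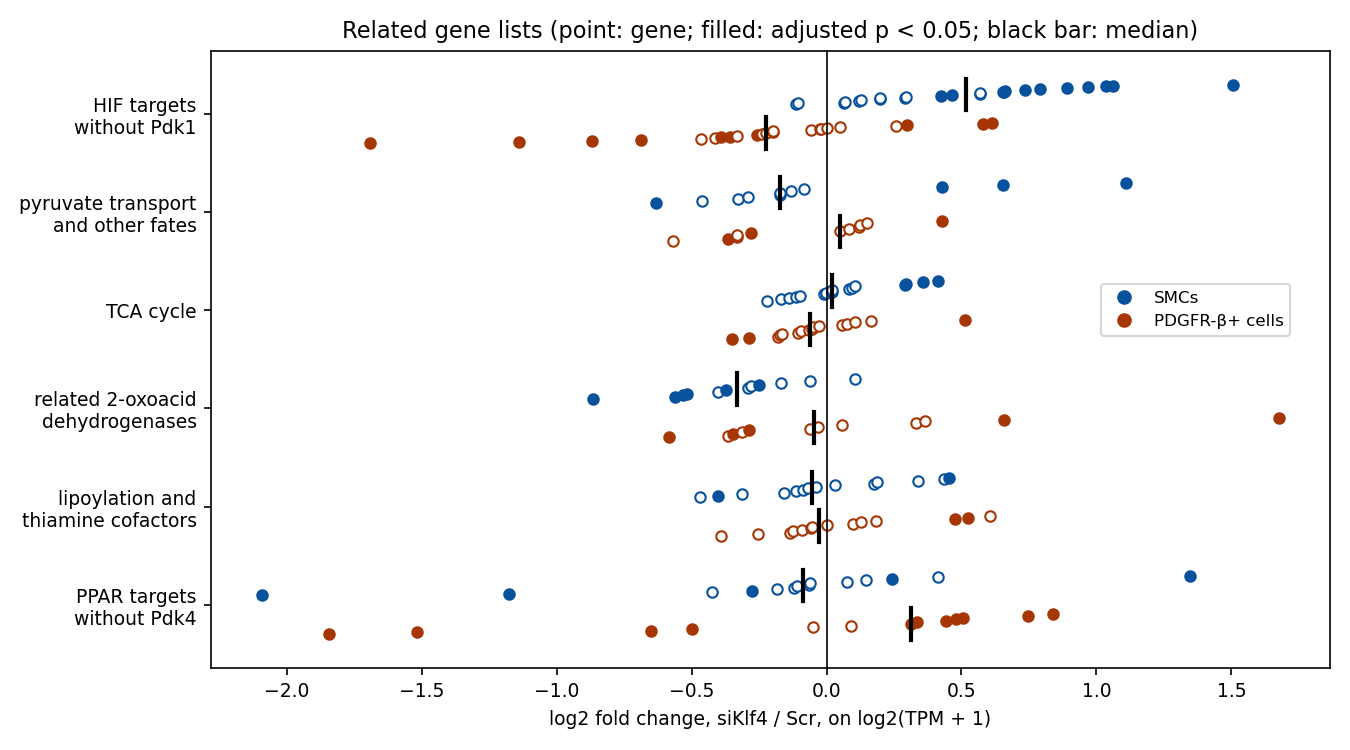
Log2 fold change of siKlf4 against Scr (horizontal axis, on log2(TPM + 1)) for each tested gene of 6 lists, in SMCs and PDGFR-β+ cells; filled points passed an adjusted p of 0.05 and black bars are medians. The HIF targets centre on 0.52 for SMCs but -0.23 for PDGFR-β+ cells.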

How the data were processed

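Bulk RNA-seq covered 12 mouse libraries. Per the methods and processing notes, the authors aligned reads to mm10 with HISAT2 and GENCODE annotation, used StringTie and ballgown for abundance, and deposited TPM in 1 table per cell type, replicates not pooled. Their DESeq2 test used counts that were not used here. Two-sided limma 3.58.1 tests in R 4.3.3 (eBayes with trend) were run on log2(TPM + 1), which understates changes of low genes, for genes averaging 1 TPM or more in the cell type, with Benjamini-Hochberg adjustment over all genes. The difference between cell types and the Scr contrast came from a fit over 12 libraries. The procedure was tested on simulated data. SMC columns without a number were used as members of their group with no pairing, and fits with a replicate block left them out. The members and lists were chosen with earlier results of these data known. Named were all members, Pdhx, Pdpr and Klf4, up to 3 largest calls per list and cell type, and the genes most like Pdk1 and Pdk4; a few genes this rule would name are not reported here. Of 2 rows with the same list symbol, the one with the higher mean was used. Alternatives were a pseudocount of 0.1, no minimum or 5 TPM, median-ratio scaling, quantile normalization, no trend, joint or separate fits, a replicate block, a term for column names, numbered SMC libraries alone and leaving out each library. List counts under median-ratio scaling and in numbered SMC libraries were added after seeing the data. Positions are from GENCODE M21 and starts from RefSeq.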

Additional observations from a re-analysis of the deposited data

Results flagged for a closer look

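For 5 of the 10 genes the effect of siKlf4 differed between SMCs and PDGFR-β+ cells by the interaction term of limma, against 33.0% of all genes. The difference in log2 fold change, SMC minus PDGFR-β+, was 0.96 for Pdk1, -0.56 for Pdk3, -0.38 for Pdk4, -1.52 for Pdp1 and -0.54 for Pdp2. The knockdown itself also differed, since Klf4 fell by 2.16 on the log2 scale among SMCs and fell by 3.35 among PDGFR-β+ cells, and its part in these differences was not tested. The methods name alternative transfection reagents and siRNA suppliers without saying which cell type received which. Cell type, source of the cells and table cannot be told apart in this comparison either.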

How the results depend on the processing

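In SMCs the count of genes called, 3, became 5 with a term for the column names and 6 in a single fit of both cell types. It became 7 in the numbered libraries alone and 5 with a replicate block in those same libraries. The cause was not tested. With a library left out the count was 3 to 4. Same-numbered PDGFR-β+ libraries did not deviate together (r between -0.02 and 0.07 across genes). Like-named SMC libraries did, with r of 0.36 for the unnumbered pair, 0.19 for replicate 2 and 0.20 for replicate 3, against -0.22 to 0.05 for unlike pairs. This is a hint from the data: only 2 SMC pairs carry numbers, and nothing in the labels says what a number marks. The replicate block called Pdp1 and Pdha1 in SMCs (adjusted p = 0.0496 and 0.0333, limma) and Pdk1 in PDGFR-β+ cells (0.0264), and ended the call of Dld between Scr groups (0.0907). Pdhb in PDGFR-β+ cells turned to -0.092 after median-ratio scaling and -0.036 after quantile normalization, and ranged from -0.009 to 0.058 with a library left out; Pdk4 there ranged from -0.036 to 0.021, Pdhx in SMCs from -0.09 to 0.039 and Pdhx between Scr groups from -0.032 to 0.018. The difference of Pdpr between cell types turned to 0.065 after median-ratio scaling, 0.081 after quantile normalization and 0.007 both with a replicate block and in numbered libraries, and ranged from -0.133 to 0.184 with a library left out. Median-ratio scaling moved the calls of the difference from 43.9% to 54.7% higher, and quantile normalization to 54.2%; in PDGFR-β+ cells quantile normalization gave 49.8% higher. In numbered SMC libraries alone, the genes that rose and fell were 3 and 3 for the other fates of pyruvate (3 and 1 in all libraries). They were 4 and 1 for the TCA cycle (4 and 0) and 0 and 5 for the list of related dehydrogenases and glycine cleavage (0 and 6). For PPAR targets they were 3 and 4 (2 and 3) and for regulators 3 and 3 (1 and 2). Precision rests on 3 libraries per group, since TPM keeps no depth.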

Other observations

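Of 15 genes for lipoic acid and thiamine cofactors, which the complex needs, 14 were tested. In SMCs Glrx5 rose by 0.45 and Isca1 fell by 0.40, where 15.6% of all genes rose and 12.9% fell. In PDGFR-β+ cells Lipt2 rose by 0.53 and Iba57 rose by 0.48, with 0 falling, where 25.3% of all genes rose and 15.3% fell. After median-ratio scaling 1 rose and 3 fell in PDGFR-β+ cells. Among 11717 genes, those whose pattern over 12 libraries lay closest to Pdk1, by the root mean square difference of centred log2(TPM + 1), were Pfkl (0.110), Ubfd1 (0.133), Pgm2 (0.134), Pappa (0.136) and Shroom2 (0.153), against a median of 0.507. Closest to Pdk4 were Ptx3 (0.135), Cdo1 (0.203) and Aldh1a1 (0.222), against a median of 1.64. This distance includes the gap between cell types: like Pdk4, they were higher in Scr SMCs, by 3.43, 3.01 and 3.30 on the log2 scale. It does not show a shared response to siKlf4, and Cdo1 was not called in SMCs (-0.20, adjusted p = 0.143, limma).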
